A study of Mus musculus with 14 samples.

Results

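The thymus of mice fed genistein for 3 days was compared with the thymus of untreated mice taken at day 0, across all genes of an Affymetrix array. Both arrays labelled as day 3 of the genistein treatment were taken as 1 group and both arrays labelled as control (day 0) as the other, which is 4 of the 14 arrays of the series. The animals were female C57BL/6 mice, an inbred strain, given as 21 days old in the labels, ovariectomised at day 26, kept on an AIN-93G diet without phytoestrogens and treated from day 30. Mice of the genistein group then ate AIN-93G with 1500 ppm genistein freely for 3 days, and mice of the control group received no treatment. Each group had 6 mice, and RNA of 3 mice was pooled for each array. The labels call the 2 pools of a group independent biological replicates. Other arrays used below are those of days 2 and 6 of the same diet, and of day 3 of daily subcutaneous injections of 125 ng 17β-estradiol in 0.02 ml corn oil, with 2 arrays each.

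Genistein is an isoflavone of soy that binds estrogen receptors, with a preference for the beta form, and at higher concentrations inhibits protein tyrosine kinases. The thymus, where immature T cells (thymocytes) divide, rearrange their receptor genes and are selected by epithelial cells and macrophages, shrinks in response to estrogens and to glucocorticoids, which kill thymocytes at the stage that carries both CD4 and CD8. Ovariectomy removes the main source of the animals' own estrogen, and the control mice had been ovariectomised too.

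Signals are given in the arrays' own intensity units after all arrays had been brought to 1 common scale, and log2 differences are of log2(signal + 16), genistein minus control. Of 13575 probe sets bright enough to be tested, which stood for 8214 genes, 32 were more than 2-fold higher and 8 more than 2-fold lower on that scale, and the median log2 difference was -0.003. Control replicate 2 stood apart from the series: its correlation with the other arrays averaged 0.942, against 0.952 to 0.969 for the remaining 13. Within the comparison the 2 genistein arrays correlated at 0.969 and the 2 control arrays at 0.955. The ratio of 3' to 5' signal of Gapdh, a sign of RNA quality, was 1.1 and 0.990 on the genistein arrays and 0.944 and 0.894 on the control arrays, and its part in the results was not tested beyond the covariate fit given with the alternatives. The control mice were taken 3 days earlier than the fed mice. Untreated mice of day 3 were not analysed here, so that genistein and 3 more days of age after surgery cannot be told apart.

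Slc2a4, which encodes the insulin-responsive glucose transporter GLUT4, was the 1 gene that passed the test. Its signal was 63.2 and 80.6 on the genistein arrays, against 11 and 15.9 on the control arrays. Both genistein arrays lay far above both control arrays, with means of 71.9 ± 12.3 and 13.5 ± 3.46 (SD, n = 2 each). The log2 difference was 1.58 ± 0.19 (SE), which is 2.98-fold on the scale with 16 added, and limma's Benjamini-Hochberg adjusted p was 0.0164. The 1 called probe set is 0.00737% of those tested, and no other gene had an adjusted p under 0.05 in either direction. At an unadjusted p under 0.05 there were 460 probe sets higher (3.39%) and 318 lower (2.34%). Slc2a4 rose, but both control signals lay below the added constant of 16, and the size depends on that constant, with log2 differences of 2.35 after adding 1 and 0.81 after adding 64.

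Slc2a4 is most abundant in fat and muscle, and the part of these tissues in its value was not tested. The summed signal of 3 adipocyte markers on the array was 702 and 804 with genistein and 782 and 922 in controls, and that of 4 skeletal muscle markers was 142 and 174 with genistein and 156 and 180 in controls. Single markers differed in direction. Adiponectin (Adipoq), made by fat cells, had signals of 20.3 and 71.0 on the genistein arrays and 64.2 and 128 on the control arrays, while the lipase Lpl had 273 and 313 with genistein and 252 and 253 in controls. The muscle creatine kinase Ckm differed by 0.26 and the muscle myosin light chain Mylpf by -0.23. The median over 13 adipocyte genes was -0.07 (0.13 without genistein replicate 1), and that over 5 muscle genes was 0.18 (-0.12 without genistein replicate 2). The call also rests on few arrays. The adjusted p of Slc2a4 was 0.0155 without control replicate 1, 0.0694 without control replicate 2, which stood apart, 0.0477 without genistein replicate 1 and 0.597 without genistein replicate 2. Without control replicate 1 the number of called probe sets was 101 (87 higher and 14 lower), and without control replicate 2 or without genistein replicate 2 it was 0. With only the 4 arrays of the comparison in the fit the adjusted p of Slc2a4 was 0.373, and with only the control and genistein groups it was 0.348.

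Beside Slc2a4, 11 genes with higher signals on both genistein arrays were named by the smallest p, and none of them passed (adjusted p = 0.155 to 0.808 in limma). Tsc22d3, the glucocorticoid-induced leucine zipper protein that dampens immune signalling, had signals of 490.5 and 779 with genistein and 253 and 287 in controls, a log2 difference of 1.15 ± 0.20. Its 2 other probe sets differed by 0.66 and -0.21. Cysrt1 had 146 and 286 with genistein and 45.8 and 59.7 in controls (1.69 ± 0.31). Both pairs are well apart, and in both genes genistein replicate 2 was much the higher array. Il7r, the interleukin-7 receptor chain that thymocyte precursors need to survive, had 300.0 and 304 with genistein and 188 and 193 in controls (0.62 ± 0.15), and the arrays of each group lay close together. Its second probe set differed by 0.30 ± 0.24.

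Cbr2 and Abcc3 belong to the enzymes and transporters that handle foreign compounds. Cbr2, a carbonyl reductase, had signals of 928 and 961 with genistein and 615 and 553 in controls (log2 difference 0.68 ± 0.14). It had 688 and 541 at day 2 of genistein and 1108 and 1170 at day 3 of estradiol. Abcc3, an exporter of conjugated organic anions, had 51.3 and 79.1 with genistein and 26.0 and 8.0 in controls (1.33 ± 0.27), with the control arrays far from each other. Its control signals lay below 44.5, the lowest mean signal kept, and its signals at day 3 of estradiol were 47.3 and 76.8. Gpx3, the secreted glutathione peroxidase, had 189 and 247 with genistein and 133 and 123 in controls (0.69 ± 0.17). Ccl5, a chemokine that attracts T cells, had 360.1 and 356 with genistein and 256 and 233 in controls (0.53 ± 0.14). Cirbp, a cold-induced RNA-binding protein, differed by 1.06 ± 0.26, with 98.3 and 208 against 51.3 and 71.3 in controls. The remaining 3 genes were Tmem219 (0.85 ± 0.19), Ccdc9 (0.97 ± 0.22) and Hint2, a mitochondrial nucleotide-binding protein (0.72 ± 0.19).

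**Figure D1:**
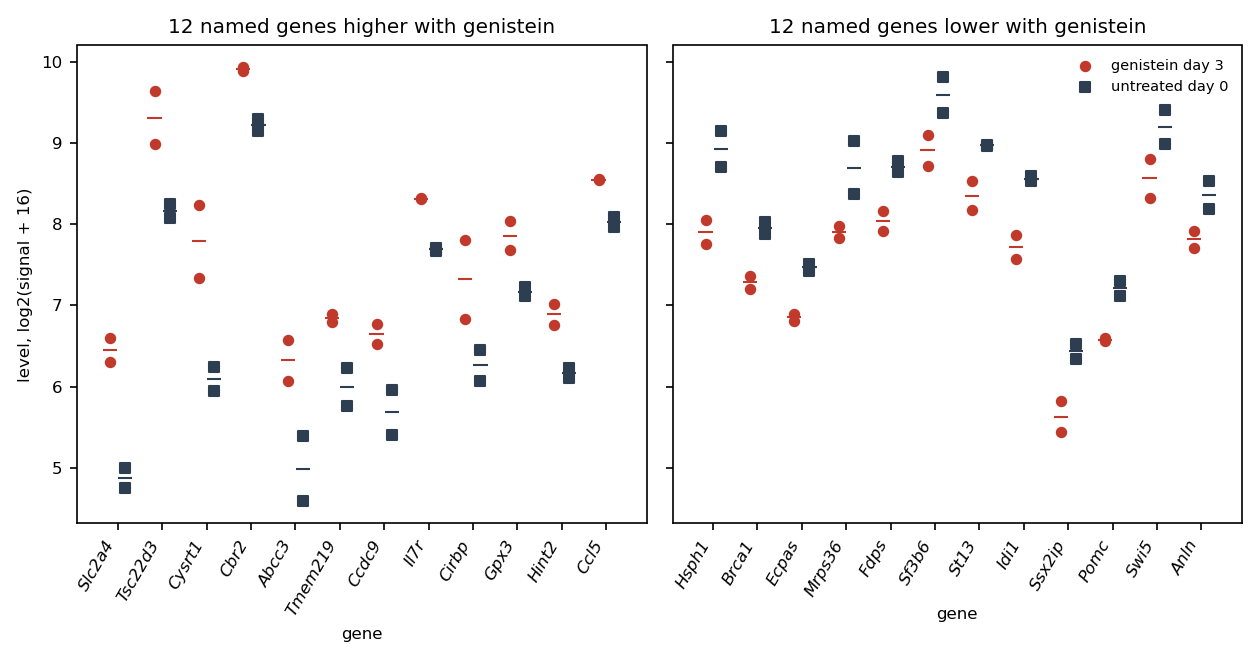
Log2(signal + 16) of the 12 named genes higher with genistein and the 12 lower, with both genistein day 3 arrays (red) beside both control arrays (dark squares) and bars at the group means. The arrays of the groups do not overlap in any of the 24 genes, which the naming rule required, and Slc2a4 is the gene that passed the test.

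Of the 12 genes named as lower with genistein none passed (adjusted p = 0.155 to 0.811 in limma). Hsph1, the large heat shock protein that recharges Hsp70, came nearest. Its signals were 249 and 201 with genistein and 549 and 402 in controls, a log2 difference of -1.02 ± 0.17. Its second probe set had 116 and 131 with genistein and 284 and 212 in controls (-0.91 ± 0.19), so that both probe sets of the gene kept the groups apart. St13, a partner of Hsp70 in folding steroid receptors, had 355 and 273 with genistein and 483 and 487 in controls (-0.62 ± 0.16). Over the alternatives tried the log2 difference of Hsph1 ran from -1.24 to -0.80, and it passed under none.

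Fdps and Idi1, which make the isoprenoid precursors of cholesterol, were in the same group. Fdps, farnesyl diphosphate synthase, had signals of 271 and 226 with genistein and 384 and 422 in controls (log2 difference -0.67 ± 0.16). Idi1, isopentenyl diphosphate isomerase, had 217 and 174 with genistein and 371 and 353 in controls (-0.84 ± 0.22), and its second probe set differed by -0.72 ± 0.20.

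Genes of chromosome repair and cell division were also named. Brca1, needed for repair of DNA breaks by recombination, had signals of 149 and 132 with genistein and 219 and 246 in controls (log2 difference -0.67 ± 0.15), while its 2 other probe sets differed by 0.05 and -0.40. Swi5 differed by -0.63 ± 0.18, and Anln, the actin-binding protein anillin of the cleavage furrow, by -0.55 ± 0.16. Ecpas, a scaffold of the proteasome, had 96.3 and 103 with genistein and 156 and 166 in controls (-0.61 ± 0.14). The rest of the group were Mrps36 (-0.80 ± 0.19), the splicing factor Sf3b6 (-0.68 ± 0.18), the centrosome protein Ssx2ip (-0.81 ± 0.22) and Pomc, the precursor of ACTH and beta-endorphin (-0.63 ± 0.17). The 2 other probe sets of Sf3b6 differed by -0.05 and 0.24, so that its lower signal rests on 1 probe set. Outside the naming rule and chosen after its values were seen, a dim second probe set of Klf9, a transcription factor that glucocorticoids and thyroid hormone induce, had 60.4 and 83.4 with genistein and 9.80 and 10.2 in controls (1.74 ± 0.28, adjusted p = 0.155). The difference at the gene's brighter probe set was 0.20.

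Gene lists were described by the number of their measured genes with an unadjusted p under 0.05 and by the number whose 2 genistein arrays both lay beyond both control arrays. Over all 8214 genes, 3.58% were higher and 2.15% lower at that p, and 15.0% were higher on both arrays and 14.1% lower. A positive log2 difference was found in 50.9% of all genes, the median was 0.004, and 0.0122% were called. Lists share some genes, and they were chosen with earlier results of these data known. Slc2a4, which stands in the adipocyte and glucose lists, was the 1 list member called.

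Cholesterol synthesis was the list with the lowest median of those with at least 3 measured genes. Of 23 listed genes 16 were measured, and 9 of these were lower and 0 higher at an unadjusted p under 0.05. Both genistein arrays lay below both control arrays in 10 of the 16 and above them in 0, and the median log2 difference was -0.42. Beyond Fdps and Idi1, Sqle, the squalene epoxidase that starts the sterol branch, had signals of 207 and 257 with genistein and 345 and 325 in controls (-0.51 ± 0.16). Cyp51, the lanosterol demethylase, had 57.2 and 59.2 with genistein and 122 and 103 in controls (-0.79 ± 0.26). Msmo1, the next methyl sterol oxidase, had 69.6 and 45.4 with genistein and 126 and 125 in controls (-0.97 ± 0.32). The groups were apart in all 3 genes.

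Hmgcs1, the synthase that makes the substrate of HMG-CoA reductase, had signals of 366 and 374 with genistein and 645 and 544 in controls (log2 difference -0.66 ± 0.23). Its 3 other probe sets differed by -0.78, -0.62 and -0.57. Srebf2, which encodes the transcription factor of this pathway, was the 1 gene of the list with a higher value (0.07). The list median stayed between -0.456 and -0.335 under all alternatives, and it was -0.36 without control replicate 1 and -0.42 without control replicate 2. A sterol regulatory element, searched as TCACNCCAC on both strands, is the site that this factor binds, and Hmgcs1 was 1 of 12 list genes with a RefSeq promoter whose 250 bases before the start held it, against 1.22% of 27025 genes. Such a count describes the list and not the difference with genistein. The promoter of Hmgcs1 (GRCm38.p6, chr13:119690101-119690350, plus strand, from RefSeq) is shown because it is the list's match, with the element in capitals, its first base 137 bases before the start.
Hmgcs1: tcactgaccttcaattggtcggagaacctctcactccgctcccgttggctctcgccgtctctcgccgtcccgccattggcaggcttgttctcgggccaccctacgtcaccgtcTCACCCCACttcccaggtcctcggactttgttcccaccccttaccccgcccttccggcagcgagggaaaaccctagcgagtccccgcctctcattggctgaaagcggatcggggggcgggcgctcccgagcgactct

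Heat shock proteins and their partners had a median log2 difference of -0.22. Of 20 listed genes 17 were measured, with 5 lower and 0 higher at an unadjusted p under 0.05, and 15 of the 17 had negative values. Both genistein arrays lay below both control arrays in 7 genes and above in 0. Dnaja1, a J-domain partner of Hsp70, had signals of 1086 and 932 with genistein and 1261 and 1565 in controls (-0.48 ± 0.17), and its other probe set had 600.0 and 493 with genistein and 847 and 877 in controls (-0.65 ± 0.14). Stip1, which links Hsp70 to Hsp90, had 264 and 321 with genistein and 413 and 372 in controls (-0.41 ± 0.15). Hspd1, the mitochondrial chaperonin, had 1104 and 1073 with genistein and 1384 and 1340.1 in controls (-0.32 ± 0.12). Fkbp4, a partner of Hsp90 in steroid receptor complexes, differed by -0.36 ± 0.14. In each of these genes every genistein array was below every control array. Hspa8, the constitutive Hsp70, had a value of 0.15.

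The heat shock list median ran from -0.32 without genistein replicate 1 to -0.13 without genistein replicate 2. The core of the heat shock element, searched as GAANNTTC on both strands, was present in the 250 bases before a start in 7 of the 15 list genes with a RefSeq promoter, against 7.73% of all 27025 genes. These 7 were Cct2, Dnaja1, Fkbp4, Hspa1b, Hspb1, Hspd1 and Hspe1, and Hsph1 held none. The count describes the list and not the difference with genistein. Whether list genes with the element differed from those without it was not tested. The promoter of Dnaja1 (GRCm38.p6, chr4:40722218-40722467, plus strand, from RefSeq) is shown as that of the listed match with both probe sets apart, with the element in capitals, its first base 124 bases before the first of 3 listed starts. The windows of the other 2 starts held no match.
Dnaja1: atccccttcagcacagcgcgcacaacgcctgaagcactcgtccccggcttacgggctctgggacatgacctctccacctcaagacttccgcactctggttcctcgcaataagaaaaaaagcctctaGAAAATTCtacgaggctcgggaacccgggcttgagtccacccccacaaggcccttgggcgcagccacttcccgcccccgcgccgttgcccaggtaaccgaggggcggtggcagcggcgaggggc

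Genes known to respond to glucocorticoids, the steroids that make thymocytes die, leaned the other way. Of 23 listed genes 20 were measured, and all 20 had positive log2 differences, with a median of 0.26. At an unadjusted p under 0.05, 6 were higher and 0 lower, and both genistein arrays lay above both control arrays in 14 and below in 0. Tsc22d3, Il7r and Gpx3 are described above. Fkbp5, an Hsp90 partner that holds the glucocorticoid receptor inactive, had signals of 1375 and 1398 with genistein and 962 and 881 in controls (0.58 ± 0.17). At its second probe set the groups overlapped, with 667 and 845 with genistein and 677 and 520 in controls (0.33 ± 0.33). Ddit4, an inhibitor of mTOR signalling, had 941 and 1123 with genistein and 609 and 788 in controls (0.56 ± 0.23). Txnip, which restrains glucose uptake and thioredoxin, had 1280.3 and 1279 with genistein and 956 and 1064 in controls (0.34 ± 0.12). None of the 20 passed, and the receptor gene Nr3c1 differed by 0.06.

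The median of the glucocorticoid list was 0.31 without control replicate 1, 0.29 without control replicate 2, 0.31 without genistein replicate 1 and 0.26 without genistein replicate 2. A glucocorticoid response element, searched as GNACA and TGTNC with 3 bases between them on both strands, was found in 3 of 19 list genes with a RefSeq promoter (Mt1, Sgk1 and Txnip), against 0.44% of all 27025 genes. Here too the count describes the list and not the difference with genistein. Of these 3 genes, Txnip had an unadjusted p under 0.05, and its promoter (GRCm38.p6, chr3:96557707-96557956, plus strand, from RefSeq) is shown with the element in capitals, its first base 172 bases before the start.
Txnip: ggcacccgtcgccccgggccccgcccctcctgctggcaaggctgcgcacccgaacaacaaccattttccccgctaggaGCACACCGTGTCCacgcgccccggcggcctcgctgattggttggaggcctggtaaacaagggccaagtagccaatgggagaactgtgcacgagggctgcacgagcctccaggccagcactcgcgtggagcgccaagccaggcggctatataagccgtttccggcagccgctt

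**Figure D2:**
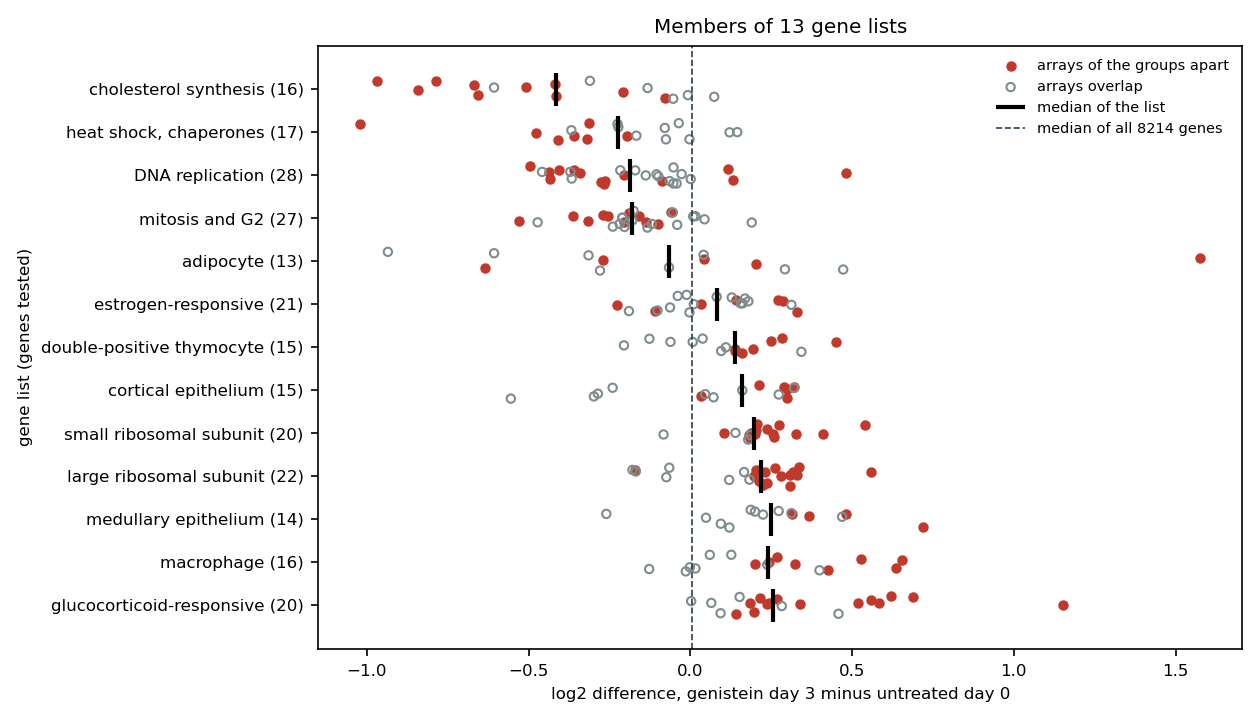
Log2 differences, genistein day 3 minus control, of every measured gene of 13 lists, 1 list per row. Filled points are genes whose 2 genistein arrays both lay beyond both control arrays, vertical bars are list medians, and the dashed line is the median of all 8214 genes. Cholesterol synthesis (-0.42) and heat shock proteins (-0.22) lie to the left, and the glucocorticoid list (0.26) lies to the right with all 20 genes.

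Genes of cell division had slightly lower values. Of 28 measured genes of DNA replication 4 were lower and 0 higher at an unadjusted p under 0.05, 11 were lower and 3 higher on both arrays, and the median log2 difference was -0.19. Mcm3, of the replicative helicase, had signals of 577 and 637 with genistein and 778 and 788 in controls (-0.36 ± 0.14). Mcm4, of the same helicase, differed by -0.44 ± 0.17, the primase Prim1 by -0.34 ± 0.13 and the origin protein Orc6 by -0.50 ± 0.21. Of 27 measured genes of mitosis 1 was lower and 0 higher at that p, 11 were lower and 0 higher on both arrays, and the median was -0.18. The 1 gene was Bub1, a kinase of the spindle checkpoint, with 256 and 197 with genistein and 269 and 410.4 in controls (-0.53 ± 0.20). The mitosis median was -0.26 without control replicate 1 and -0.08 without control replicate 2.

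Thymocyte genes differed in direction. The 12 thymus markers on the array are 9 of thymocytes and 3 of epithelium (Foxn1, Prss16 and Ccl25). The 9 thymocyte markers summed to signals of 13509 and 14607 with genistein and 12903 and 12366 in controls. Of these 9, 4 were higher on both genistein arrays (Rag1, Dntt, Cd8b1 and Cd3e) and 1, Ptcra, the precursor chain of the T cell receptor, was lower (log2 difference -0.24), and Rag2, the partner of Rag1, differed by -0.21. Of 15 early thymocyte genes 10 were negative. Rag1, which cuts the receptor genes, had 2602 and 2715 with genistein and 2446 and 2313 in controls (log2 difference 0.16 ± 0.16, adjusted p = 0.934 in limma). Cd4 had 732 and 1132 with genistein and 765 and 667 in controls (0.34 ± 0.26, adjusted p = 0.900), and Cd8a had 1892 and 2056 with genistein and 1986 and 1679 in controls (0.11 ± 0.13, adjusted p = 0.938). The median over 15 genes of thymocytes with both CD4 and CD8 was 0.14, and 0.003 after quantile normalization. In whole thymus fewer cells of a type and less RNA per cell cannot be told apart.

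Epithelial genes had positive medians. Among 14 measured genes of medullary epithelium 13 were positive, 1 was higher and 0 lower at an unadjusted p under 0.05, 4 were higher and 0 lower on both arrays, and the median log2 difference was 0.25. The 1 gene was Aire, which lets medullary cells display proteins of other tissues, with signals of 85.8 and 101 with genistein and 64.9 and 38.4 in controls (0.72 ± 0.22). In cortical epithelium 3 of 15 genes were higher and 0 lower at that p, and the median was 0.16. They were the protease Ctsl, with 2699 and 2690.2 with genistein and 2144 and 2227 in controls (0.30 ± 0.10), the protease Prss16 (0.30 ± 0.12) and the chemokine Ccl25 (0.29 ± 0.12). The medullary median was 0.15 without control replicate 2, which stood apart, and the cortical median 0.02 without genistein replicate 1.

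Macrophage genes were higher in 5 of 16 measured genes and lower in 0 at an unadjusted p under 0.05, and higher on both arrays in 8 and lower in 0. The median log2 difference was 0.24, and it lay between 0.19 and 0.27 under all alternatives. The complement genes C1qa and C1qb, products of resident macrophages, led the list. C1qa had signals of 461 and 550.3 with genistein and 358 and 276 in controls (0.65 ± 0.19), and C1qb had 399 and 462 with genistein and 262 and 280 in controls (0.63 ± 0.18). Both other probe sets of C1qb were positive as well, at 0.34 and 0.72. C1qc differed by 0.53 ± 0.21 and the lysosomal protein Cd68 by 0.43 ± 0.15, while Adgre1, the F4/80 antigen, differed by -0.01. The 5 macrophage markers summed to 1220 and 1388 with genistein and 1027 and 973 in controls.

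Among other immune lists, all 8 measured genes of MHC class II were positive, with a median of 0.15 (0.34 without genistein replicate 1, 0.06 without genistein replicate 2 and 0.07 after quantile normalization), and 2 were higher at an unadjusted p under 0.05. They were H2-Ab1, with signals of 732 and 823 with genistein and 625 and 546 in controls (0.40 ± 0.13), and H2-Oa (0.39 ± 0.16). Of 16 chemokines and receptors 4 were higher and 0 lower at that p, with a median of 0.23 (0.10 without genistein replicate 2). Beside Ccl5 and Ccl25 these were Cxcl9, which interferon gamma induces (0.66 ± 0.26), and Ccr9, the receptor for Ccl25 (0.28 ± 0.12). The 4 B cell markers summed to 2381 and 2005 with genistein and 2049 and 2164 in controls, and the groups overlapped. The neutrophil markers, 4 on the array, summed to 1026 and 622 with genistein and 686 and 678 in controls, and genistein replicate 1 alone was high.

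Of 20 measured ribosomal protein genes of the small subunit 16 were higher on both genistein arrays and 0 lower, and 5 were higher at an unadjusted p under 0.05, with a median log2 difference of 0.20. Of 22 genes of the large subunit 14 were higher and 1 lower on both arrays, and the median was 0.22. Rps15 had signals of 2386 and 2994 with genistein and 1996 and 2016 in controls (0.41 ± 0.13), and Rpl13a had 3687 and 4438 with genistein and 3022 and 3392 in controls (0.34 ± 0.12). After quantile normalization, which forces the arrays to share 1 distribution, the medians were -0.001 for the small and 0.005 for the large subunit of the ribosome, and that of the 12 thymus markers was -0.003, against 0.14 before.

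**Figure D3:**
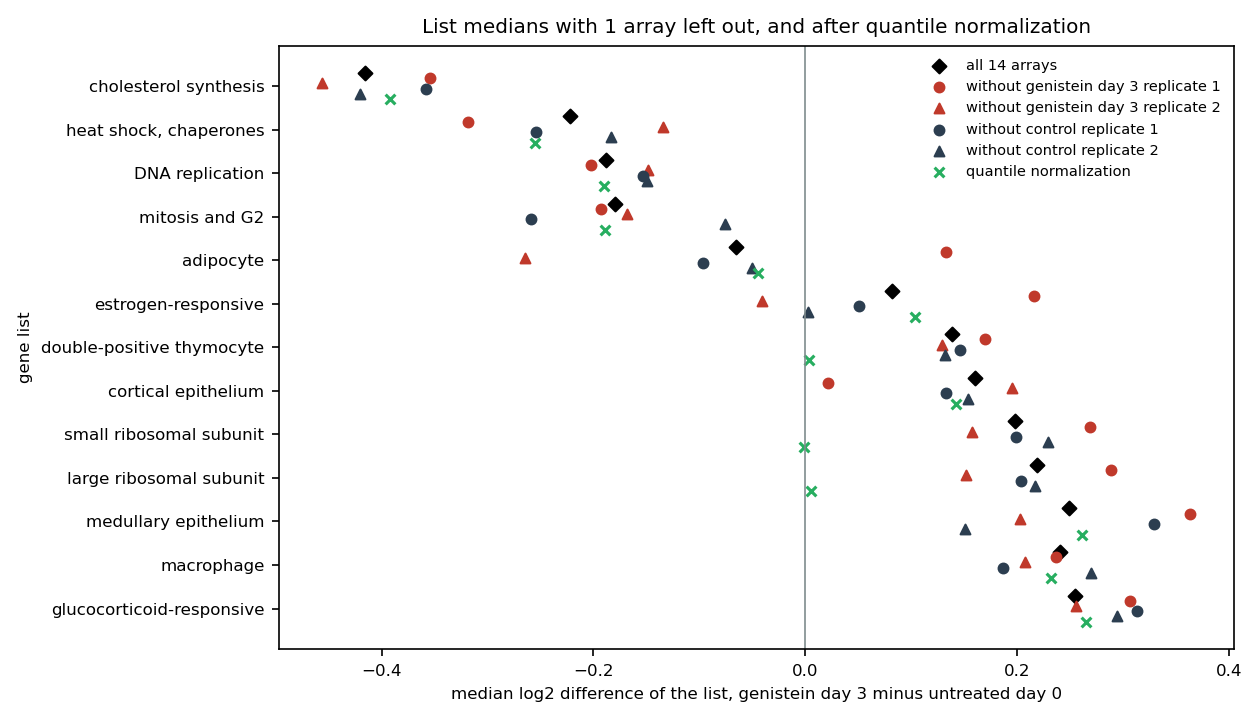
Median log2 difference, genistein day 3 minus control, of each list over all arrays, with each of the 4 arrays of the comparison left out in turn, and after quantile normalization. The cholesterol and glucocorticoid lists keep their side throughout (-0.46 to -0.35 and 0.26 to 0.31 over these settings), while the ribosomal lists move to about 0 after quantile normalization.

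Genes of estrogen action were counted beside the 3.58% of all genes higher and 2.15% lower at an unadjusted p under 0.05. The receptor genes Esr1, Esr2 and Pgr were too dim to be tested. Esr1 had signals of 21.2 and 7.0 with genistein and 6.20 and 28.2 in controls, and Esr2, for the receptor that genistein prefers, had 10.2 and 12.3 with genistein and 23 and 16.3 in controls. Of 9 measured receptor and coregulator genes 0 had an unadjusted p under 0.05 and 0 had arrays that did not overlap, and the median log2 difference was 0.04 (-0.04 without genistein replicate 1 or without control replicate 2). Of 21 measured estrogen-responsive genes 1 was higher and 0 lower at that p, with a median of 0.08. The 1 gene was Ctsd, the lysosomal protease cathepsin D, with 1061 and 1264 with genistein and 956 and 882 in controls (0.33 ± 0.13). That median was 0.22 without genistein replicate 1 and -0.04 without genistein replicate 2. An estrogen response element, searched as GGTCA and TGACC with 3 bases between them on both strands, was in 0 of the 9 higher and 0 of the 10 lower named genes with a RefSeq promoter and in 0.0666% of all 27025 genes. With so rare an element a match among so few genes was unlikely from the outset, and no conclusion is drawn from its absence. The estrogen-responsive list was not searched for it.

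Enzymes of xenobiotic metabolism had a median of 0.26 over 12 measured genes, 11 of them positive. Against the same controls the median was 0.03 at day 2 and 0.30 at day 6 of genistein, and 0.26 at day 3 of estradiol. For genistein day 3 against estradiol day 3 it was -0.01, so the value was not particular to genistein. Beside Cbr2 and Abcc3, the sulfotransferase Sult1a1, which conjugates phenols, had signals of 81.7 and 114 with genistein and 68.5 and 63.7 in controls (log2 difference 0.46 ± 0.19), and it was the third of 3 genes higher at an unadjusted p under 0.05. Nqo1, a quinone reductase, had 127 and 113 with genistein and 94.9 and 91.6 in controls (0.31 ± 0.16). Of 45 measured genes of oxidative phosphorylation 0 had such a p, with a median of 0.05 (-0.01 without control replicate 1 or after quantile normalization), and of 31 proteasome genes 1 was higher and 0 lower.

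Whether day 3 of the diet differed from its other days was tested against the mean of days 2 and 6, with no control array. None of the 13575 probe sets passed in limma (0.00% called, smallest adjusted p = 0.233), and 307 were higher (2.26%) and 418 lower (3.08%) at an unadjusted p under 0.05. Against day 2 alone 0 passed as well (0.00%), with 481 higher (3.54%) and 497 lower (3.66%) at that p, and against day 6 alone 0 passed (0.00%), with 251 higher (1.85%) and 289 lower (2.13%). Slc2a4, with signals of 63.2 and 80.6 at day 3, had 64.3 and 70.6 at day 2 and 77.3 and 79.4 at day 6. Its log2 difference, day 3 minus the mean of the other days, was -0.02 ± 0.17, and its arrays overlapped with those of both days.

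The named genes of that comparison all missed the threshold (adjusted p = 0.448 to 0.708 in limma). C77080 had signals of 79.6 and 90.6 at day 3, against 31.7 and 32.0 at day 2 and 41.7 and 49.8 at day 6 (log2 difference 0.89 ± 0.16), while the control arrays had 112 and 117. Slfn2, which holds T cells in quiescence, had 599 and 750 at day 3, against 495 and 494 at day 2 and 246 and 383 at day 6 (0.76 ± 0.17). S100a8, a calcium-binding protein of neutrophils, had 463 and 296 at day 3, against 159 and 157 at day 2 and 188 and 260.3 at day 6 (0.93 ± 0.22), and its day 3 arrays differ as the neutrophil marker sums do. Zfp644 (0.70 ± 0.15) and Leprot (0.67 ± 0.16) completed the 5 higher genes. Among the 5 lower were Ecpas, with 96.3 and 103 at day 3, against 160 and 176 at day 2 and 141 and 145 at day 6 (-0.56 ± 0.12), and the transcription factor Grhl2 of epithelia (-0.77 ± 0.19). Lbx2, Mynn and Prima1 differed by -0.60, -0.57 and -0.64. Other probe sets of these genes differed by less or in the other direction. They were at 0.03 for Zfp644, 0.34 and -0.23 for Leprot and -0.18 for Grhl2. Those of Mynn were at -0.005, 0.54, 0.03 and 0.31.

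Values over the days of the diet were compared next, beginning with the untreated day 0. Tsc22d3 had signals of 253 and 287 in controls and, with the diet, 609 and 533 (day 2), 490.5 and 779 (day 3) and 544 and 581 (day 6). Hsph1 had 549 and 402 in controls and, with the diet, 219 and 192 (day 2), 249 and 201 (day 3) and 278 and 264 (day 6). In both genes every array of the diet lay on 1 side of both control arrays. The 3 days overlapped in Tsc22d3, while in Hsph1 the day 6 arrays lay above those of days 2 and 3. Fdps had 384 and 422 in controls and, with the diet, 333 and 359 (day 2), 271 and 226 (day 3) and 255 and 205 (day 6), so that its day 2 arrays lay nearest to the controls. Ccl5 had 256 and 233 in controls and, with the diet, 223 and 232 (day 2), 360.1 and 356 (day 3) and 317 and 349 (day 6). The list medians against control, which share the control arrays and so are only set side by side, were -0.16, -0.42 and -0.28 at days 2, 3 and 6 for cholesterol synthesis, -0.21, -0.22 and -0.26 for heat shock proteins and 0.12, 0.26 and 0.29 for the glucocorticoid list.

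**Figure D4:**
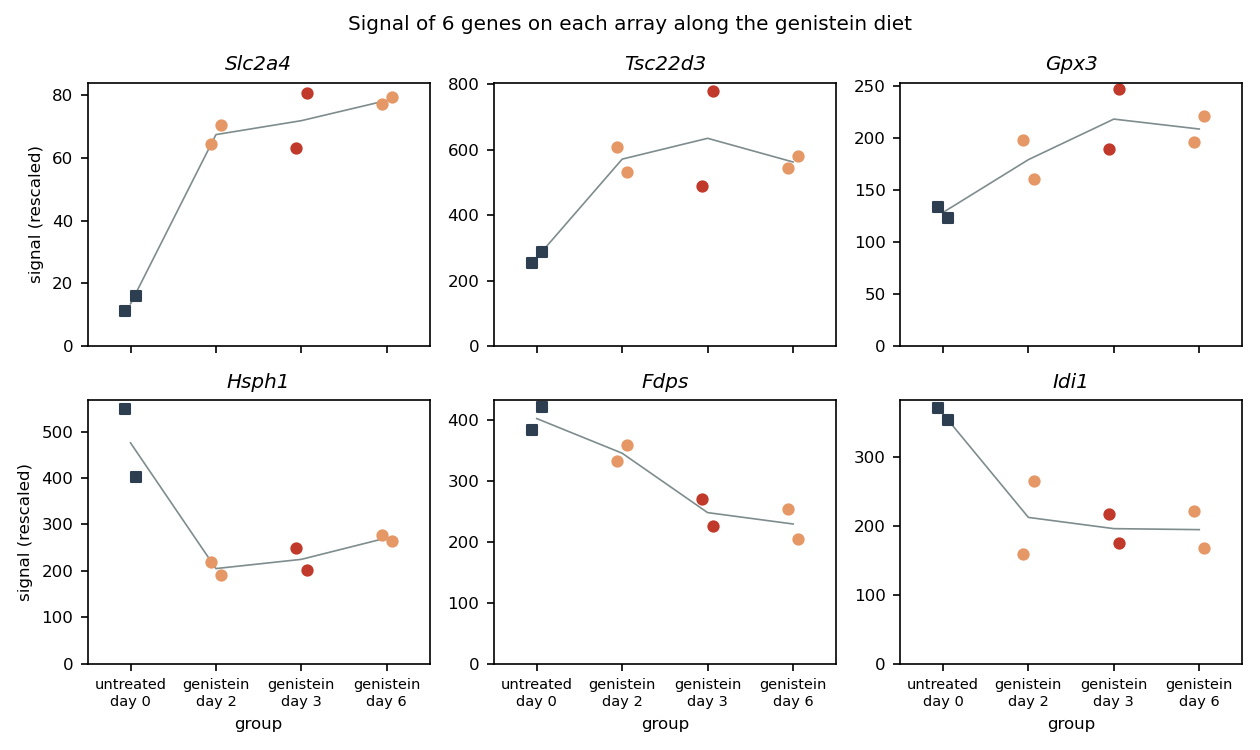
Signals of Slc2a4, Tsc22d3, Gpx3, Hsph1, Fdps and Idi1 in untreated mice at day 0 and on days 2, 3 and 6 of genistein, 1 point per array, with lines that join the group means. In Slc2a4 all arrays of the diet sit between 63.2 and 80.6, above the control arrays at 11 and 15.9.

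Against day 3 of estradiol injections, again with no control array, 2 probe sets passed in limma (0.0147%), both lower with genistein, and 415 were higher (3.06%) and 495 lower (3.65%) at an unadjusted p under 0.05. With the brightest probe set standing for each gene, 0 of 8214 genes passed (0.00%). The named one of the 2 detects Nktr, which encodes a protein of the cyclophilin family, through a probe set that is not the gene's brightest. It had signals of 34.3 and 39.6 with genistein and 168 and 171 with estradiol, a log2 difference of -1.81 ± 0.20 (adjusted p = 0.00559). The control arrays had 39.2 and 33.8, and the arrays of genistein days 2 and 6 had 28.2 to 41.8. All genistein and control signals thus lay below 44.5, the lowest mean signal kept. The probe set was bright enough to be tested only through the estradiol arrays. The other, which carries no gene name here, had 54.1 and 66.9 with genistein and 219 and 190.0 with estradiol (-1.53 ± 0.22, adjusted p = 0.0498). Estradiol mice were injected with corn oil and genistein mice were not, so that hormone, oil and injection cannot be told apart, and both estradiol arrays were among 3 that had been deposited at another scale. With either genistein array or either estradiol array left out 0 passed, and with either genistein day 6 array left out 6 did.

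Other named genes of the comparison with estradiol did not pass (adjusted p = 0.0933 to 0.417 in limma). Ctss, the cathepsin that trims the MHC class II invariant chain, had signals of 1025 and 854 with genistein and 587 and 528 with estradiol (log2 difference 0.73 ± 0.13). Plvap, of fenestrated endothelium, had 64.4 and 66.6 with genistein and 30.4 and 27.5 with estradiol (0.86 ± 0.18). Malat1, a long nuclear RNA, had 82.8 and 206 with genistein and 891 and 850.4 with estradiol (-2.58 ± 0.41), and Cmah, which makes a sialic acid, had 60.5 and 63.7 with genistein and 156 and 149 with estradiol (-1.11 ± 0.21). In each of these the groups were apart. Slc2a4 had 63.2 and 80.6 with genistein and 68.4 and 73.4 with estradiol (0.01 ± 0.19), so that its genistein arrays enclosed those of estradiol. Hsph1 had 249 and 201 with genistein and 277 and 305 with estradiol (-0.35).

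Gene lists were also counted against estradiol. Over all 8214 genes 2.90% were higher and 2.82% lower with genistein at an unadjusted p under 0.05. Of 13 measured adipocyte genes 0 were higher and 5 lower, with a median log2 difference of -0.54. Of 16 macrophage genes 1 was higher and 6 lower, with a median of -0.20, and of 24 fibroblast and matrix genes 0 were higher and 4 lower, with a median of -0.28. Fabp4, the fatty acid binding protein of adipocytes, had signals of 408 and 420 with genistein and 657 and 791 with estradiol (-0.78). Cholesterol genes had a median of 0.15, with 13 of 16 positive. Ribosomal genes of the small and large subunit had medians of 0.26 and 0.24, which were 0.02 and 0.03 after quantile normalization, and the glucocorticoid list had a median of -0.05. With single arrays left out or another scaling the medians ran from -0.73 to -0.24 for adipocyte, -0.26 to -0.12 for macrophage, 0.10 to 0.25 for cholesterol and -0.13 to 0.02 for glucocorticoid genes.

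**Figure D5:**
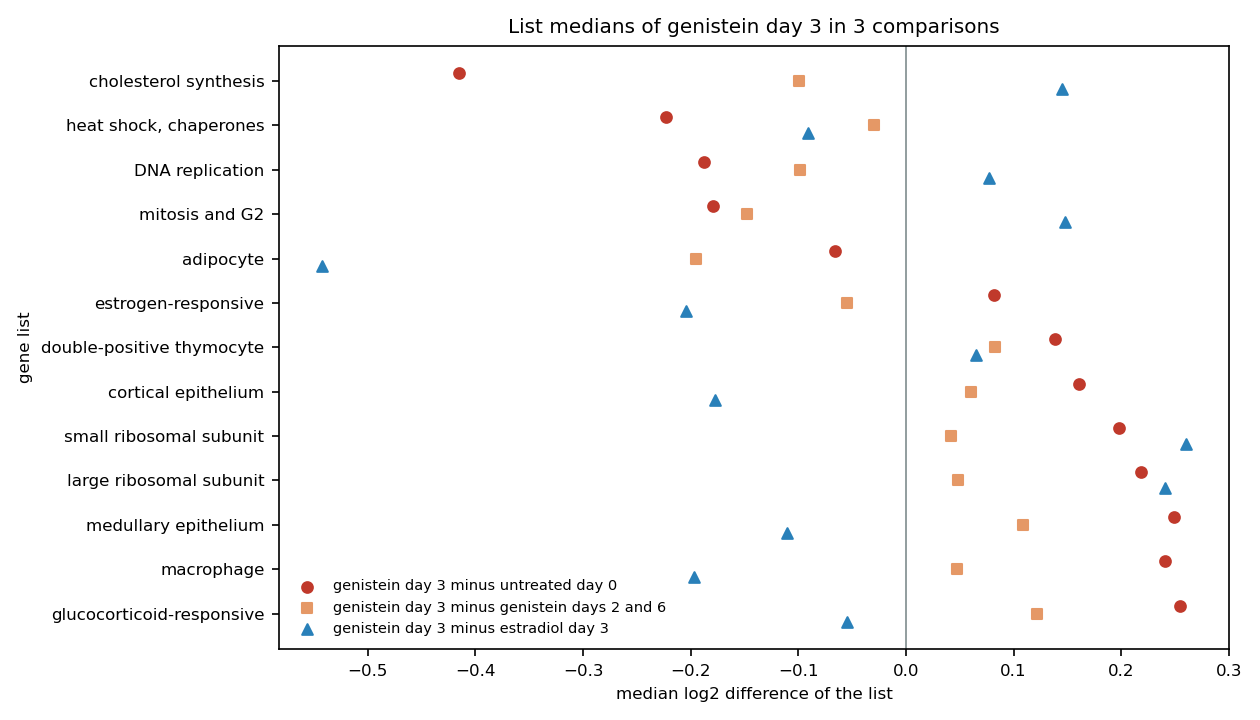
Median log2 difference of each list for genistein day 3 against control, against the mean of genistein days 2 and 6, and against estradiol day 3. The cholesterol list is at -0.42, -0.10 and 0.15, and the glucocorticoid list at 0.26, 0.12 and -0.05. The adipocyte list is at -0.07, -0.20 and -0.54.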

How the data were processed

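Signals of 14 Affymetrix arrays in 7 groups of 2, named per the labels, were used as deposited. They are intensity values that the authors made with MAS5 5.0, per the submitters' processing notes. On 11 arrays the 2%-trimmed mean was 150.04, and on 3 estradiol arrays 1.49, 2.00 and 2.23 times that. The analysis had been planned for arrays at 1 scale, so all were multiplied to 150.04. The number of arrays limits the precision.

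With 64 control probe sets removed, values became log2(signal + 16), and the dimmest 40% over all arrays were dropped, which kept mean signals from 44.5 upward. limma 3.58.1 in R 4.3.3 fitted the 7 group means (lmFit, eBayes with a trend, 13.74 moderated degrees of freedom), with Benjamini-Hochberg adjustment and calls at 0.05. P-values measure the spread between pools of 3 mice, estimated over all 7 groups together and not from the groups compared alone. That spread was unequal. The median SD within a group was 0.157 in controls, 0.146 in genistein day 3 and 0.0842 in estradiol days 3 and 6. The table held 22690 probe sets, 20393 with a single symbol (20364 matched in the RefSeq gene table), 691 with more and 1606 unnamed. The brightest probe set stands for its gene except where another is mentioned.

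Named were the 12 largest changes each way among called genes whose arrays do not overlap, filled up with the smallest p (5 each way in the other comparisons), Esr1, Esr2, Pgr, Rag1, Cd4 and Cd8a, and up to 4 members of a list by smallest p. Other genes of lists are given as context. The genes compared and the lists were chosen with earlier results of these data known. Alternatives were the constants 1 and 64, no filter and 60% left out, quantile and median scaling, no trend, a replicate block, only the groups compared, no rescaling, and each array left out. Fits without the 3 rescaled arrays, with their scale as a term, and with the Gapdh ratio as a covariate, and list medians of the other comparisons, were added once the data had been seen. Promoters are the 250 bases before RefSeq starts. Plots used matplotlib 3.10.9 (python 3.11.15).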

Additional observations from a re-analysis of the deposited data

Results flagged for a closer look

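The log2 difference of genistein day 3 against estradiol day 3 in Nktr was -1.81, the difference itself having passed limma's test, and it was 0.01 for genistein day 3 against control. It rests on a dimmer probe set of the gene, whose genistein and control signals lay below the lowest mean signal kept. With the brightest probe set for each gene, 0 of 8214 genes passed against estradiol day 3 (0.00%). The probe set without a gene name had a log2 difference of -1.53 between genistein day 3 and estradiol day 3, and it passed the same test. Ccl5 lay above both controls on both genistein day 3 arrays and below both on both genistein day 2 arrays, where its log2 difference from control was -0.0952, and for genistein day 3 against genistein day 2 its log2 difference was 0.62 ± 0.14, which did not pass (adjusted p = 0.481 in limma). With 2 arrays in each group, no array could be tested as an outlier within its own group.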

How the results depend on the processing

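For genistein day 3 against control the count of called probe sets, 1 as reported, was 2 with 1 added in place of 16 or with the replicate block, 3 with the Gapdh ratio as a covariate (Klf9, Slc2a4 and Tsc22d3), and 0 with 64 added, with no filter, with the lowest 60% left out, as deposited, with only the groups compared, with only control and genistein groups and without the 3 arrays at another scale. Leaving out 1 array gave 0 to 101. Slc2a4 passed in 18 of the 28 alternatives that tested it (log2 difference 0.81 to 2.35, adjusted p = 0.00453 to 0.597 in limma). It was not tested with the lowest 60% left out. For genistein day 3 against estradiol day 3 the count, 2 as reported, was 1 with 1 added, with quantile scaling, without a trend, with the replicate block, with the other estradiol groups left out and with the Gapdh ratio, 0 with the lowest 60% left out or with the deposited scale as a term, 3 with 64 added or with arrays centred on their medians (Malat1 in both) or with only the groups compared (Fen1, called higher), and 13034 on the values as deposited, where the estradiol arrays were brighter as a whole. Leaving out 1 array gave 0 to 6 there, 0 to 2 for genistein day 3 against genistein days 2 and 6 (2 without genistein day 2 replicate 2), 0 to 8 against genistein day 2 (8 without its replicate 2) and 0 to 6 against genistein day 6 (6 without its replicate 2), each 0 as reported. Beyond Slc2a4, Abcc3, Ccdc9 and Mrps36 passed without control replicate 1 (adjusted p = 0.0174, 0.0352 and 0.0155) and Tsc22d3 without genistein replicate 1 (0.0477) or with the Gapdh ratio (0.0492). The causes were not tested.

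Replicate numbers did not pair the arrays in a uniform way, and whether some groups shared handling was not tested. Over 21 pairs of groups the correlation of same-numbered arrays' deviations ran from -0.256 to 0.351 with a median of -0.006, and 5 were over 0.1. The lowest was that of genistein days 2 and 3 and the highest that of genistein days 3 and 6. Of 47 lists 24 kept the sign of their median under every alternative. Cholesterol synthesis, heat shock proteins, glucocorticoid response, macrophages and both cell cycle lists were among them. Of 1362 list medians 69 moved by more than the spread between arrays. Many alternatives could not move a median of this comparison, so both counts make the medians look steadier than they are. Such were fits that left out arrays of other groups, or changed only the trend, the replicate block or the scale term. After quantile normalization the medians of the ribosomal, thymus marker and double-positive thymocyte lists lay within 0.005 of 0. No result turned its direction where it had been called. With 2 arrays a group, small differences and dim genes stay below what could be tested.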

Other observations

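Genistein is known to inhibit tyrosine kinases and topoisomerase II, and lists for both were counted for genistein day 3 against control, beside 3.58% of all genes higher and 2.15% lower at an unadjusted p under 0.05. Of 21 measured genes of tyrosine kinase signalling and immediate early response 1 was higher and 0 lower, with a median log2 difference of 0.09. The 1 gene was Ier2, an immediate early nuclear protein, with signals of 305 and 317 on the genistein arrays and 230.2 and 185 on the control arrays (0.56 ± 0.16). Of 16 measured genes of topoisomerases and the p53 response 2 were higher and 0 lower, with a median of 0.07. They were Perp, a p53 target of cell junctions, with 164 and 171 with genistein and 119 and 98.2 in controls (0.56 ± 0.19), and Trp53inp1, which supports p53, with 1901 and 1806 with genistein and 1612 and 1462 in controls (0.27 ± 0.12). The arrays of the groups did not overlap in these 3 genes, and none passed in limma.

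Other lists were read in the same comparison. Of 15 genes of early thymocytes 2 were higher and 0 lower, Il7r and the adhesion receptor Cd44, with signals of 172 and 177 with genistein and 113 and 132 in controls (log2 difference 0.46 ± 0.18), while the median was -0.06. Of 14 genes of fatty acid synthesis 0 were higher and 1 lower, the elongase Elovl6, with 101 and 127 with genistein and 158 and 168 in controls (-0.46 ± 0.17), and the median was -0.10. Of 22 genes of endoplasmic reticulum stress and the Atf4 response 0 were higher and 2 lower, the serine pathway enzymes Psph (-0.41 ± 0.18) and Shmt2 (-0.29 ± 0.13), with a median of -0.06. Of 21 genes of the oxidative stress response 3 were higher and 0 lower, Gpx3, the ferritin heavy chain Fth1 (0.47 ± 0.16) and Txnip, with a median of 0.10. Fth1 had 2418 and 3291 with genistein and 2333 and 1772 in controls, so that genistein replicate 1 lay close to control replicate 1. These medians are small. Without genistein replicate 1 they were 0.05 for early thymocytes and 0.07 for fatty acid synthesis, and without control replicate 2 they were -0.001 for tyrosine kinase signalling and 0.001 for topoisomerases and p53, 0.06 for oxidative stress and -0.09 for endoplasmic reticulum stress. Without genistein replicate 1 the last was -0.11.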
